A study of Mus musculus with 4 samples.

Results

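The genes described here encode 10 enzymes that build the heparan sulfate chain, Ext1, Ext2, Extl1, Extl2, Extl3, Ndst1, Ndst2, Hs2st1, Hs6st1 and Hs6st2, out of 21631 protein-coding genes on chromosomes 1 to 19 and X of the mouse build GRCm38. A peak belonged to a gene when its summit, the position of highest signal, lay in the annotated span of the gene or within 50 kb of either end. The members were chosen by the positions of these same peaks, so their counts, densities and folds are descriptions and were not tested. The study sequenced chromatin from fibroblasts of newborn mouse hearts after immunoprecipitation (ChIP-seq), to find regulatory elements bound by the transcription factor TEAD1. One group of cells overexpressed TEAD1 (OE-TEAD1), and the other carried the negative control of the overexpression (OE-NC). There was 1 ChIP library and 1 input library for OE-TEAD1 and likewise for OE-NC, without replicates. The input libraries were made from a portion of the fragmented chromatin that was not immunoprecipitated. Sources used here do not name the construct, its promoter, the antibody's target, the mouse strain or the exact age, and signal from endogenous and from overexpressed TEAD1 cannot be told apart.

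Both files are lists of peaks called against input, with 21285 peaks in list 1 and 21218 in list 2. Neither list is tied to OE-TEAD1 or OE-NC by the labels, so the lists are set side by side and no effect of overexpression is given. Fold over input and −log10 q are the authors' values for single peaks, and the strongest peak of a gene is the one with the highest −log10 q. The intervals given with folds are exact Poisson 95% intervals of the fragment count at the summit, recovered from the deposited fold and p. They cover the counting error of that count only and take the background as known without error. A peak list holds no expression level, so the labelled cell type could not be checked by marker expression. By the same 50 kb rule, 58.2% of all protein-coding genes had a summit in list 1 and 59.0% in list 2. In lists 1 and 2, summits were found at 9 and 9 of 10 fibroblast marker genes and at 10 and 7 of 10 cardiomyocyte markers. Endothelial markers had them at 5 and 4 of 6 genes and leukocyte markers at 4 and 3 of 6. Tcf21 (fibroblast), Emcn (endothelial), Ptprc and Adgre1 (leukocyte) had none in either list. These counts were not tested and do not identify the cell type.

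Heparan sulfate is a long, sulfated sugar chain carried by proteoglycans of the cell surface and the extracellular matrix, where it binds growth factors of the FGF, Wnt and hedgehog families and presents them to their receptors. The chain is started on a short sugar linker and extended by the exostosin (EXT) polymerase in the Golgi. Acetyl groups are then replaced with sulfate by N-deacetylase/N-sulfotransferases, and further sulfate is added by 2-O- and 6-O-sulfotransferases. Fibroblasts make much of the matrix of the heart, and heparan sulfate proteoglycans are part of it. TEAD1 is a DNA-binding factor through which the coactivators YAP and TAZ of the Hippo pathway reach their target genes.

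Summits were found at most of these genes, unevenly, and the exostosin gene Ext1 carried 35.7% of them in list 1 and 40.4% in list 2. List 1 had 56 summits at 8 of the 10 genes and list 2 had 52 at 9, and 8 genes had summits in both lists. Over all protein-coding genes, 58.2% had such a summit in list 1, 59.0% in list 2 and 52.2% in both. The members' spans had a median of 81.2 kb, against 17.3 kb over all protein-coding genes. Summits inside the spans numbered 33 in list 1 and 32 in list 2, in 7 genes each, against 20.7% and 20.8% of all protein-coding genes with a summit inside the span. Of the 4 members with spans of at least 100 kb, 3 had a summit inside in list 1 and 4 in list 2, against 61.4% and 62.8% of all genes of that length.

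Per length, the members together held 3.03 summits per 100 kb of span in list 1 (95% Poisson interval 2.09 to 4.25) and 2.94 in list 2 (2.01 to 4.15). The intervals cover counting error only and leave out the spread between genes. All protein-coding genes together held 1.00 and 0.977 per 100 kb of span. Ext1 supplied 51.5% and 59.4% of the members' summits inside spans, and without it the members held 1.97 and 1.60 per 100 kb of span. By span alone Ndst2 was densest, at 9.22 per 100 kb in each list, from 1 summit in 10.8 kb. Extl3 had 8.18 and 6.13, and Ext1 had 6.12 and 6.84, in lists 1 and 2. With the flanks counted in, Ext1 was densest in both lists, with 5.29 and 5.56 summits per 100 kb of span and flanks. Extl3 (4.55) and Ndst2 (4.51) came next in list 1, followed by Hs2st1 (3.33), Extl2 (3.29) and Ndst1 (3.04). In list 2 Ndst2 (4.51), Extl2 (3.29), Ndst1 (3.04), Extl3 (3.03) and Hs2st1 (2.49) followed. Hs6st1 (1.45 and 0.724) and Ext2 (1.32 in each list) were lower, Hs6st2 had 0 and 0.253, and Extl1 had 0 in both. The plot of densities by gene shows these values with their counting intervals, which for Ext1 ran from 3.23 to 8.17 in list 1 and from 3.44 to 8.49 in list 2.

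**Figure D1:**
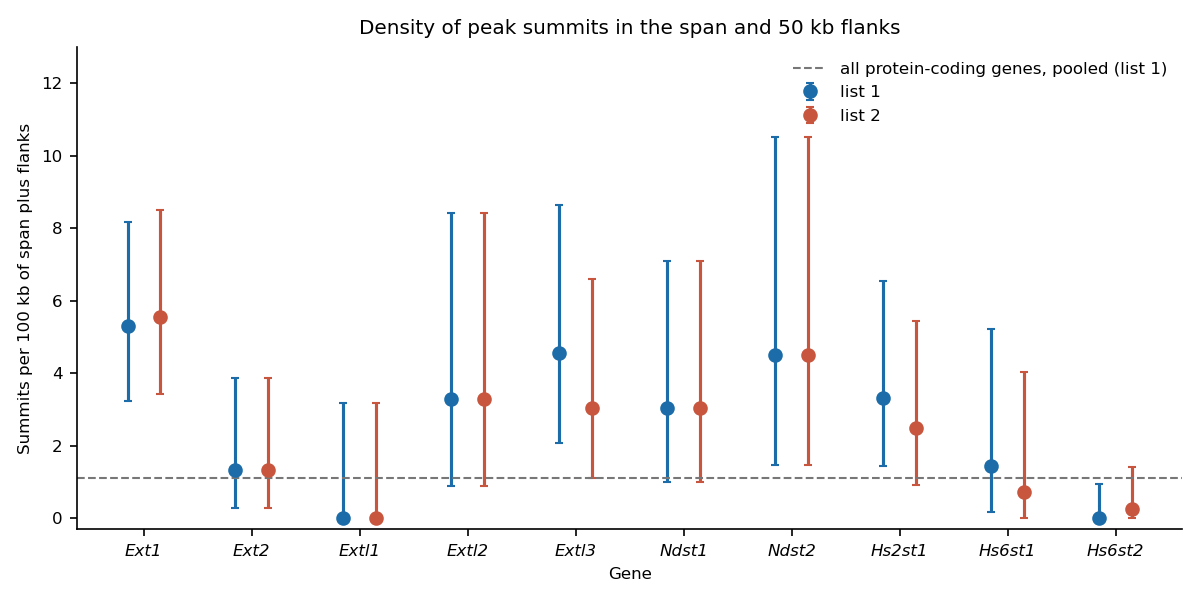
Summits per 100 kb of span plus 50 kb flanks (vertical axis) for each gene (horizontal axis), with list 1 left of list 2. Bars are exact Poisson 95% intervals of the count, and the dashed line is the pooled density at all protein-coding genes in list 1. Ext1 is highest in both lists, and Extl1 has no summit in either.

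Ext1 encodes a catalytic subunit of the polymerase that adds alternating glucuronic acid and N-acetylglucosamine to the chain. Its product works in complex with the Ext2 product. The Ext1 span of 278 kb on chromosome 15 (chr15:53068261-53346183) held 17 summits in list 1 and 19 in list 2, or 6.12 and 6.84 per 100 kb. At least as many summits inside the span were found in 16 of the 21631 protein-coding genes in list 1 and in 11 in list 2, Ext1 included. Among the 2427 genes with spans of at least 100 kb, 2.02% in list 1 and 0.948% in list 2 were at least as dense. No other protein-coding gene overlapped the span or its flanks.

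The summits were spread along the Ext1 span. Cut into 3 equal parts from the lower coordinate, it held 5, 6 and 6 summits in list 1 and 7, 8 and 4 in list 2. The median gap between neighbouring summits was 11.8 kb in list 1 and 9.38 kb in list 2, and the widest gaps were 36.7 and 45.8 kb. Most of these peaks were weak, with a median of 5.21-fold in list 1 and 5.29-fold in list 2, and 4 in each list reached 10-fold. One site stood out, 70.6 kb inside the lower end of the span at chr15:53138422-53139449 in list 1 and chr15:53138577-53139308 in list 2. Its fold was 46.6 in list 1 (39.8 to 54.4, 161 fragments) and 37.3 in list 2 (31.2 to 44.3, 130 fragments), intervals that overlap. By −log10 q it ranked above 99.6% of list 1 peaks and 98.1% of list 2 peaks. Sites 44.7, 103 and 107 kb from the lower end were at 11.9-fold and 12.7-fold, at 13.1-fold and 17.5-fold, and at 8.40-fold and 13.7-fold in lists 1 and 2. Outside the span, 9.5 kb beyond its lower end, a further site reached 17.1-fold in list 1 (12.9 to 22.2) and 11.7-fold in list 2 (8.22 to 16.3).

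Ext2 encodes the partner subunit that the polymerase needs for full activity. Its span of 127 kb (chr2:93695631-93822568) held fewer summits, 2 in each list, or 1.58 per 100 kb of span. Between 27.4% and 28.3% of genes of at least 100 kb were at least that dense. The strongest lay inside the span, 46.0 kb from its upper end, and was 8.32-fold in list 1 (5.62 to 11.9) and 13.3-fold in list 2 (9.44 to 18.1). On each side of it a weaker summit was called in 1 list only, 5.14-fold in list 1 and 6.00-fold in list 2. The third site lay upstream of the gene. Ext2 is read from the minus strand, and summits 1.22 kb (list 1) and 1.48 kb (list 2) before its start were 4.54-fold (2.85 to 6.89) and 9.90-fold (6.74 to 14.1) over input.

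That was the summit nearest to a start among the 7 members whose starts are listed in the RefSeq promoter table used (GRCm38.p6), which gives 9 starts for Ext2, Extl1, Extl2, Ndst2, Hs2st1, Hs6st1 and Hs6st2. None of the 7 had a summit within 1 kb of a listed start in either list, against 4.56% and 4.21% of all protein-coding genes in that table. The 250 bases before these starts were searched for GGAATG and its reverse complement CATTCC, the core of the motif bound by TEAD proteins. They were found before 2 of the 9 starts, those of Ext2 and Ndst2, and in 12.6% of all 32851 start windows of the table. The AP-1 motif TGAGTCA (reverse complement TGACTCA) was in none of the 9 and in 4.46% of all. With only 9 windows, neither count can be told apart from the share over all windows. No peak overlapped these windows, so the letters are shown for the sequence near the starts and not as bound sites. Below are the windows with the motif, in capitals, and that of Hs2st1, whose nearest summits lay 4.5 kb upstream. All are on the minus strand, written in the direction of transcription, at chr2:93822569-93822818 for Ext2, chr14:20734563-20734812 for Ndst2 and chr3:144570217-144570466 for Hs2st1.
Ext2: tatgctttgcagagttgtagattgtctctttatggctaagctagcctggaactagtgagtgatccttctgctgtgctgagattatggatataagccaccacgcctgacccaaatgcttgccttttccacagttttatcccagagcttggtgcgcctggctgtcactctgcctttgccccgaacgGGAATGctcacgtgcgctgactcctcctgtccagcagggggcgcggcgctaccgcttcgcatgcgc
Ndst2: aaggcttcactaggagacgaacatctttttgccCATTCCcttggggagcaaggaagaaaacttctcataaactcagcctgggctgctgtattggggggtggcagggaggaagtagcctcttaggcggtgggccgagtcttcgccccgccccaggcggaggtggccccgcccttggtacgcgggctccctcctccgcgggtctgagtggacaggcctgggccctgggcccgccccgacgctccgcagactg
Hs2st1: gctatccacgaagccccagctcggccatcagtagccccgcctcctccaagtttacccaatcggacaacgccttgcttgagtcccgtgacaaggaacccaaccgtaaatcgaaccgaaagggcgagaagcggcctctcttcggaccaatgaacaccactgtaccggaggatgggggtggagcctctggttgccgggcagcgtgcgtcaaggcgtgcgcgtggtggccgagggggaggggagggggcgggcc
The motif began 66 bases before the start of Ext2, as GGAATG, and 217 bases before that of Ndst2, as CATTCC.

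The 3 EXT-like genes differed widely. Extl3 encodes the glycosyltransferase that adds the first N-acetylglucosamine and so commits the linker to heparan sulfate. Its span of 97.8 kb (chr14:65052059-65149899) held 8 summits in list 1 and 6 in list 2, or 8.18 and 6.13 per 100 kb of span. At least as many summits inside the span were found in 0.952% and 1.72% of all protein-coding genes. That comparison is not matched for length, since the median span over all protein-coding genes was 17.3 kb. The strongest, at chr14:65113324-65114320 in list 1 and chr14:65113191-65114061 in list 2, was 23.5-fold in list 1 (18.3 to 29.7) and 17.4-fold in list 2 (13.7 to 21.8). Sites 22.8 kb from the lower end (13.2-fold and 15.7-fold) and 9.2 kb from the upper end (11.0-fold and 14.7-fold) also passed 10-fold in both lists. A summit 14.1 kb beyond the upper end was called in list 1 only, at 7.05-fold (4.77 to 10.1).

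Extl2 encodes an enzyme that can add a sugar to the linker and end chain growth. Its window (span chr3:116007449-116029017) had 4 summits in each list, of which the strongest did not lie in Extl2. That site, chr3:115961643-115962819 in list 1, lay inside the neighbouring zinc transporter gene Slc30a7, 45.1 kb from Extl2, and was 34.3-fold in list 1 (28.9 to 40.4) and 44.3-fold in list 2 (37.4 to 52.1). Inside Extl2 itself there was 1 summit in list 1, at 4.34-fold, and none in list 2. Extl1, an EXT-like transferase with a span of 16.2 kb (chr4:134356373-134372547), had no summit within 50 kb in either list. The nearest lay 110 kb away in both, at 7.71-fold and 6.63-fold.

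Ndst1 and Ndst2 encode N-deacetylase/N-sulfotransferases, which replace the acetyl group of N-acetylglucosamine with sulfate and so set where later sulfation can occur. Ndst1 (chr18:60684494-60749035) had 5 summits in each list, and all 5 sites were called in both. The strongest lay 7.4 kb beyond the upper end of the span, at chr18:60755962-60756645 in list 1, between Ndst1 and the ribosomal protein gene Rps14, which was 18.2 kb away. It was 42.6-fold in list 1 (35.7 to 50.5) and 42.5-fold in list 2 (35.4 to 50.6). Inside the span, 12.6 kb from the upper end, the summit fell on the same base in both lists, at 19.5-fold in list 1 (14.6 to 25.4) and 25.1-fold in list 2 (19.7 to 31.6). A second intragenic site was at 11.4-fold and 7.55-fold. Beyond the lower end, a site 11.7 kb away was 6.51-fold in list 1 (4.10 to 9.89) and 19.9-fold in list 2 (15.1 to 25.7), intervals that do not overlap. With a median of 11.4-fold and 19.9-fold over its 5 summits, Ndst1 had the highest median in both lists.

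Ndst2, best known from mast cells, where it is needed to make heparin, is a short gene of 10.8 kb (chr14:20723730-20734570) in a crowded stretch of chromosome 14. Its window had 5 summits in each list, all shared. One lay inside the gene, 0.55 kb (list 1) and 0.51 kb (list 2) from its lower end, which is the 3′ end since Ndst2 is read from the minus strand. It was 10.2-fold in list 1 (6.92 to 14.6) and 6.66-fold in list 2 (4.56 to 9.42), and it also lay 0.66 and 0.62 kb from the neighbouring gene Zswim8. Of the 4 others, 2 lay in the kinase gene Camk2g, 1 in the fucosyltransferase gene Fut11 and 1 between genes. The strongest in the window was in Camk2g, 31.1 kb from Ndst2, at 23.1-fold in list 1 (17.8 to 29.6) and 11.1-fold in list 2 (8.39 to 14.3), intervals that do not overlap. In list 2 the Fut11 site had a fold of 11.9 and a lower −log10 q, and its fold in list 1 was 7.78.

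The O-sulfotransferase genes had few summits in their own spans. Hs2st1, which encodes the 2-O-sulfotransferase acting mainly on iduronic acid, spans 141 kb (chr3:144429701-144570216) and held 2 summits in list 1 and 1 in list 2. Of these, the site called in both lists was 4.30-fold and 5.49-fold over input and also lay inside the span of Gm43707. The other, called in list 1 only, was at 6.61-fold. Of the summits in its window, 4 of 8 in list 1 and 3 of 6 in list 2 fell in the neighbouring selenoprotein gene Selenof. The strongest there, 7.7 kb from Hs2st1 at chr3:144577558-144578257 in list 1, was 10.9-fold in list 1 (8.02 to 14.6) and 23.9-fold in list 2 (18.7 to 30.1), intervals that do not overlap. A summit 32.7 kb beyond the span was called in list 2 only, at 8.60-fold (5.86 to 12.2).

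Hs6st1 and Hs6st2 encode 6-O-sulfotransferases, which modify glucosamine at sites that matter for FGF signalling. Hs6st1 (chr1:36068400-36106446) had no summit inside its span in either list. A site 10.4 kb (list 1) and 10.3 kb (list 2) beyond its upper end was 5.53-fold in list 1 (3.30 to 8.78) and 13.3-fold in list 2 (9.44 to 18.1), intervals that do not overlap, and a summit 6.81 kb upstream of its start was called in list 1 only, at 4.88-fold. A summit just past the limit, 51.1 kb before the lower end in both lists, reached 11.7-fold and 33.7-fold, whereas the summits closest to the limit from within, 47.7 and 48.1 kb from Extl2, were at 4.38-fold and 4.94-fold. Hs6st2, the longest of the genes at 295 kb (chrX:51386637-51681705), had 1 summit in list 2, at 6.28-fold (3.80 to 9.85), and none in list 1, where the nearest lay 154 kb outside the span. On chromosome X 27.5% of protein-coding genes had a summit by the same rule in list 1 and 29.6% in list 2.

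**Figure D2:**
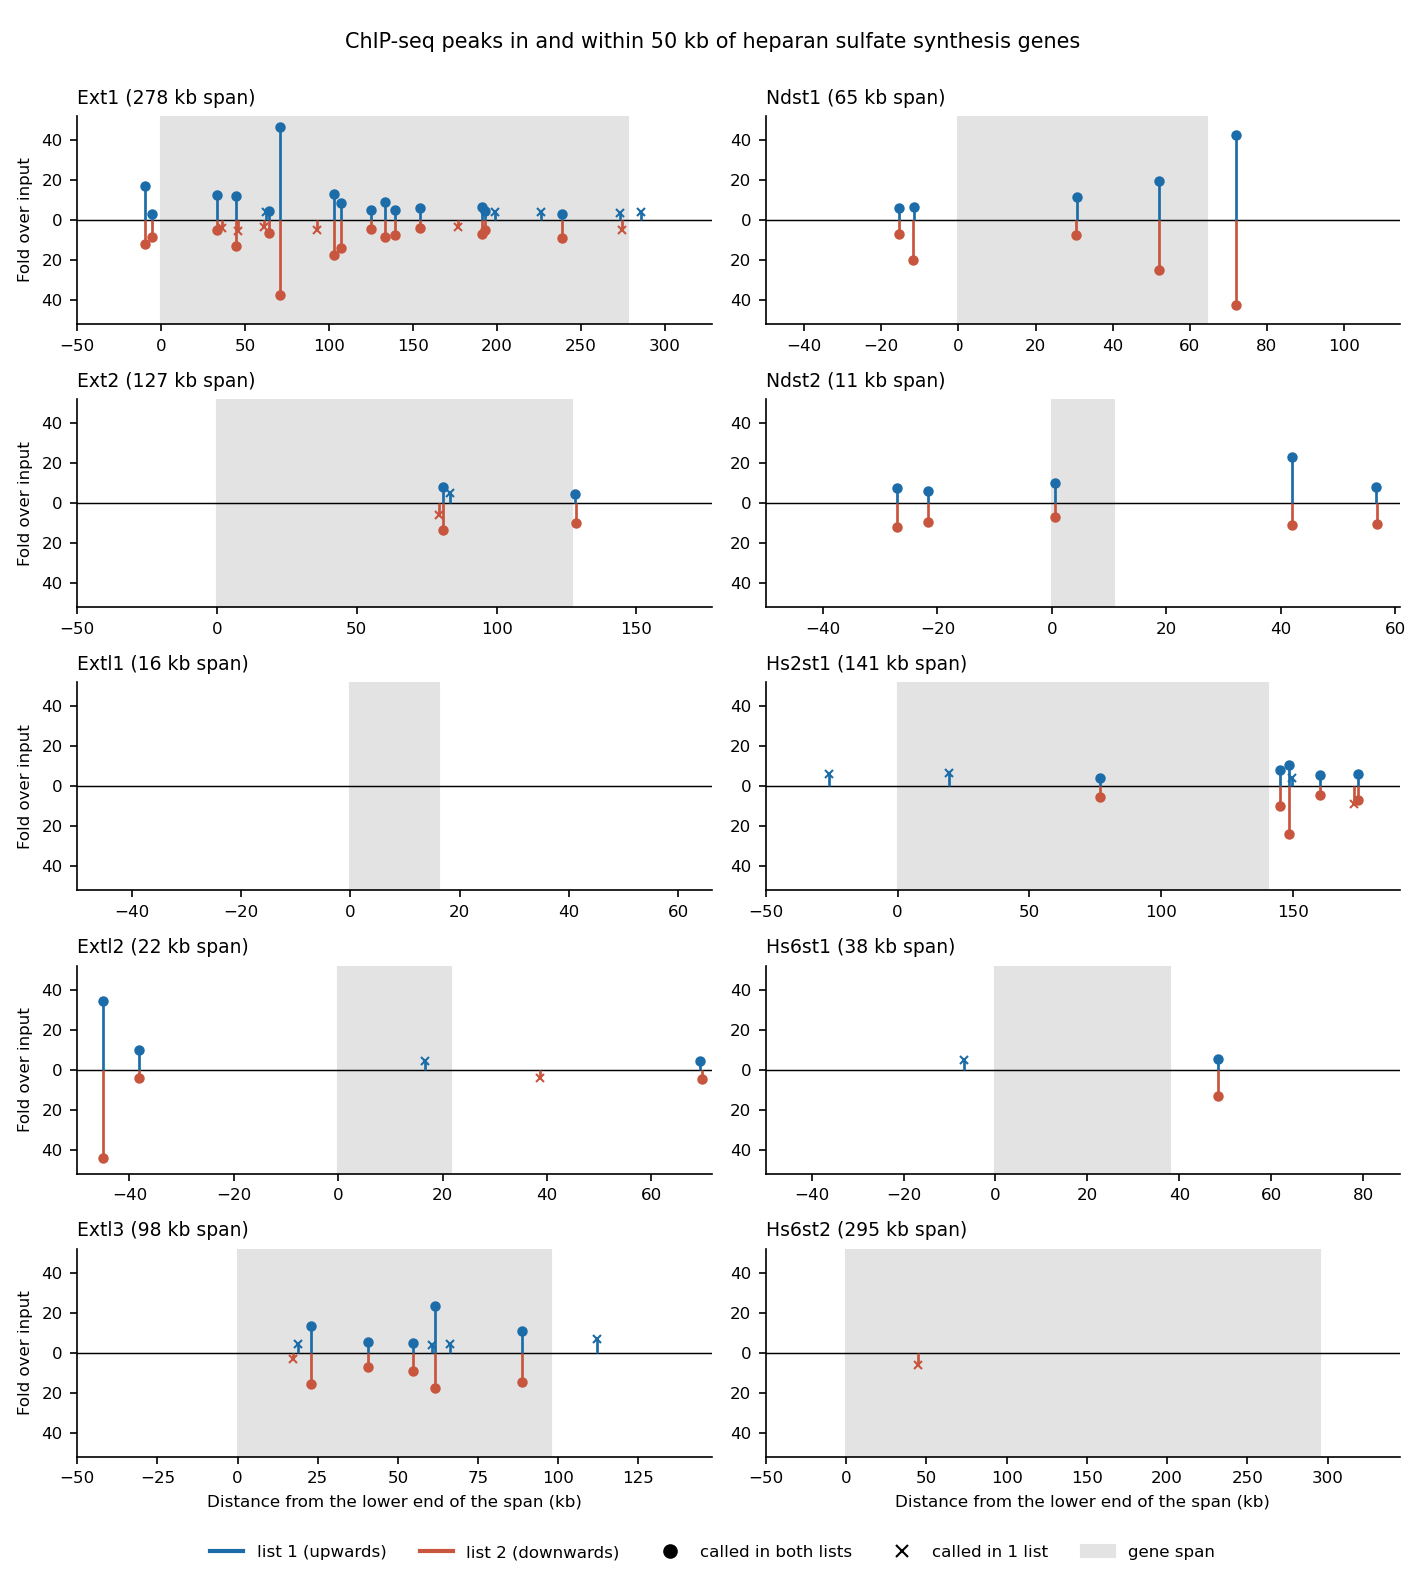
Peak summits by distance from the lower-coordinate end of each gene span (horizontal axis, kb) and by fold over input (vertical axis), with list 1 drawn upwards and list 2 downwards. Circles are sites called in both lists, crosses are sites called in 1 list, and grey marks the gene span. Ext1 and Extl3 hold most of their summits inside the span, while the highest summits at Extl2, Ndst1, Ndst2 and Hs2st1 lie outside it.

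Summits fell in the genes, in their neighbours and between genes. In list 1, 33 of 56 lay inside a member, 9 in a neighbouring protein-coding gene and 14 outside such genes, and in list 2 the counts were 32, 8 and 12 of 52. The strongest summit was inside the gene itself for Ext1, Ext2 and Extl3 in both lists, and for Hs6st2 in list 2. For Extl2, Ndst2 and Hs2st1 it was in a neighbour's span, and for Ndst1 and Hs6st1 it was in neither. In each list 1 summit, that of Ndst2, lay within 1 kb of an end of the member's own span. Within 1 kb of an end of any protein-coding gene lay 2 of the 56 in list 1 (3.57%) and 2 of the 52 in list 2 (3.85%), close to the 5.30% and 5.05% of all peaks. The median distance to an end of the member's span was 32.4 kb in list 1 and 37.3 kb in list 2. Peaks of at least 10-fold were present at 6 of the 10 genes in list 1 and 8 in list 2, against 24.4% and 28.1% of all protein-coding genes. These shares are not matched for length, and the members' median span was 81.2 kb against 17.3 kb over all genes. At Extl2 and Hs2st1 in both lists, and at Ndst2 in list 2, such peaks lay only in neighbouring genes. The median member peak was 6.24-fold in list 1 and 8.06-fold in list 2, against 6.24-fold and 6.83-fold over all peaks of each list. Backgrounds solved from fold and p ran from 1.72 to 5.18 fragments in list 1 and from 1.87 to 4.47 in list 2. Both ranges started at the lowest value of the list. That value recurred at member sites on different chromosomes, so it need not be a local input level.

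The lists were then compared at these genes. Of the members' peaks, 41 of 56 in list 1 overlapped a list 2 peak by at least 1 bp, or 73.2% (Wilson 95% interval 60.4 to 83.0), and 41 of 52 in list 2 overlapped a list 1 peak, or 78.8% (66.0 to 87.8). Over all peaks the percentages were 70.9 and 71.4. All peaks of at least 10-fold, 15 in list 1 and 18 in list 2, were shared, as were 98.8% and 98.1% of all peaks of at least 10-fold in lists 1 and 2. Peaks in 1 list only were weak, with medians of 4.33-fold and 4.73-fold and highest folds of 7.05 and 8.60. Of those, 5 in list 1 and 6 in list 2 were at Ext1. Ndst1 and Ndst2 had no peak in 1 list only, while the single peak of Hs6st2 was in list 2 only.

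At the 41 shared sites the summits lay a median of 32 bp apart. The median log2 ratio of folds, list 1 over list 2, was −0.26 (SD 0.70 across sites), against −0.15 (SD 0.55) over all 15015 shared pairs. List 1 was higher at 13 member sites and list 2 at 28. The counting intervals, which leave out the error of the background, did not overlap at 7 of the 41 sites, against 8.78% of all shared pairs. List 2 was the higher at 5 of the 7, where all pairs gave 7.11% higher in list 2, and list 1 at 2, where all pairs gave 1.67%. The 5 were the Ndst1, Hs2st1 and Hs6st1 sites above and 2 at Ext1, one 39.4 kb from its upper end (2.91-fold and 8.89-fold) and one 5.2 kb beyond its lower end (3.18-fold and 8.67-fold). The 2 were the Camk2g site near Ndst2 and an Ext1 site 33.2 kb from its lower end (12.4-fold and 4.94-fold). How far the fragments and the background each differed varied between such sites, and no library sizes were at hand to scale the fragments. The Camk2g site had 62 fragments over a background of 1.72 in list 1 and 55 over 4.06 in list 2, whereas the Ndst1 site beyond its lower end had 20 over 2.23 in list 1 and 56 over 1.87 in list 2. Without replicates, no difference could be set against a spread between cultures.

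**Figure D3:**
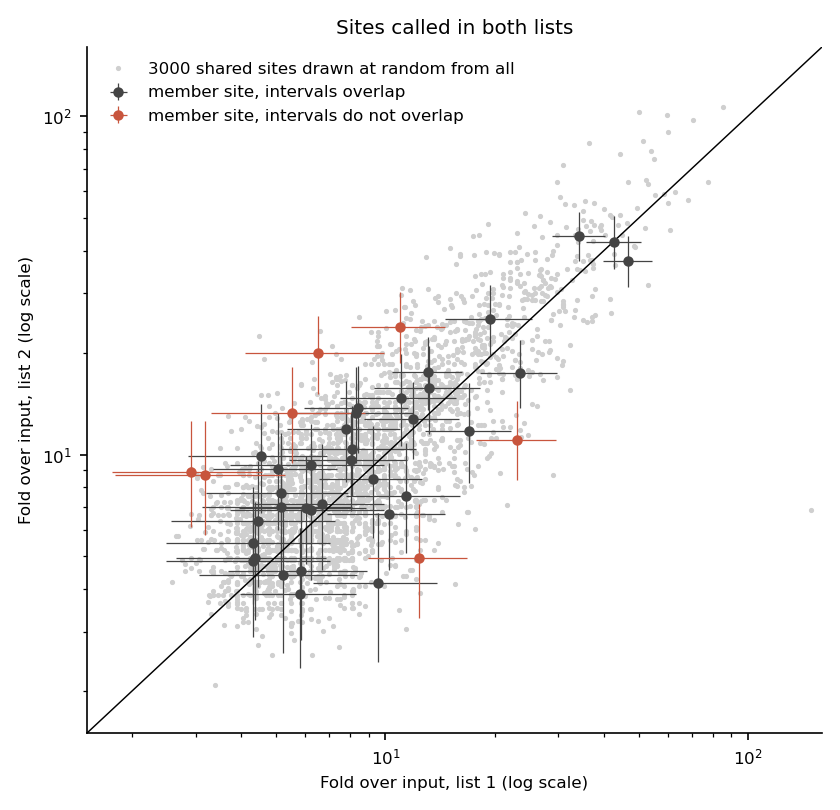
Fold over input in list 1 (horizontal, log scale) and list 2 (vertical, log scale) at the 41 sites of the heparan sulfate synthesis genes called in both lists, with exact Poisson 95% counting intervals, over a random draw of all shared sites in grey. Red points are the 7 sites whose intervals do not overlap, 5 of them above the line of equal folds. The strongest sites, at Ext1, Ndst1 and Extl2, have overlapping intervals.

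Genes that act before, beside and after these enzymes were described by the same rule. Of 70 genes of glycosaminoglycan metabolism in 7 groups, 48 had a summit in list 1 and 48 in list 2, against 58.2% and 59.0% of all protein-coding genes. Genes that supply precursors had summits in 7 of 8 cases in each list. Ugdh, which makes the UDP-glucuronic acid used in every chain, had a site 2.38 kb outside its span at 50.8-fold in list 1 (43.4 to 59.2) and 66.4-fold in list 2 (58.5 to 75.0). Slc35d2, a nucleotide sugar transporter, had one 26.0 kb outside its span at 58.4-fold (49.7 to 68.2) and 62.2-fold (54.6 to 70.6). Enzymes of the linker, on which the chain is started, had summits at 3 of 7 genes in each list. Xylt1, B4galt7, B3galt6 and B3gat3 had none, while the phosphatase gene Pxylp1 had 9 and 7 with the strongest at 22.1-fold and 24.1-fold, and the strongest at the kinase gene Fam20b was 13.2-fold and 9.42-fold.

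The remaining heparan sulfate modifying enzymes had summits at 6 of 11 genes in each list, or 54.5%. Over all protein-coding genes the shares were 58.2% in list 1 and 59.0% in list 2. Ndst3, a relative of Ndst1 best known from the brain, had an intragenic site at 32.8-fold in list 1 (27.8 to 38.5) and 75.7-fold in list 2 (66.0 to 86.5), intervals that do not overlap. Hs3st3a1, a 3-O-sulfotransferase gene, had 6 and 7 summits inside its span with the strongest at 25.2-fold and 29.9-fold. Hs6st3, Hs3st2, Hs3st4 and Hs3st5 had no summit in either list. Among genes for editing and breakdown 9 of 11 (81.8%) had one in list 1 and 6 of 11 (54.5%) in list 2. Sulf2, an extracellular enzyme that removes 6-O-sulfate, had a site 0.76 kb outside its span at 11.0-fold and 13.3-fold, and Ids, a lysosomal sulfatase gene, one inside its span at 15.4-fold and 12.2-fold.

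Core protein genes, whose products carry the chains, had summits in 10 and 11 of 14 cases, or 71.4% and 78.6%. All protein-coding genes stood at 58.2% and 59.0%. The glypican gene Gpc6 held 8 and 11 summits inside its span, with the strongest at 33.9-fold and 32.1-fold. Gpc1 had a site 31.8 kb outside its span at 28.4-fold and 32.2-fold, and Col18a1, encoding a basement membrane collagen that carries heparan sulfate, an intragenic site at 22.5-fold and 31.2-fold. Gpc2, Gpc3 and Gpc4 had none. Synthesis of chondroitin and dermatan sulfate, the sister chains built on the same linker, had summits in 11 and 13 of 16 genes (68.75% and 81.25%). Csgalnact1, which begins the chondroitin chain, held 14 and 12 summits inside its span, with the strongest at 20.8-fold and 22.1-fold, and Ust, a uronyl 2-O-sulfotransferase gene, 10 and 8 with the strongest at 20.5-fold and 25.9-fold. Of the hyaluronan synthase genes Has1 and Has2 had summits in both lists, with the strongest at 19.3-fold and 34.9-fold at Has1 and 20.8-fold and 12.0-fold, at different sites, at Has2, and Has3 had none. Whether any group differs from other genes was not tested, and spans differ in length between groups.

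**Figure D4:**
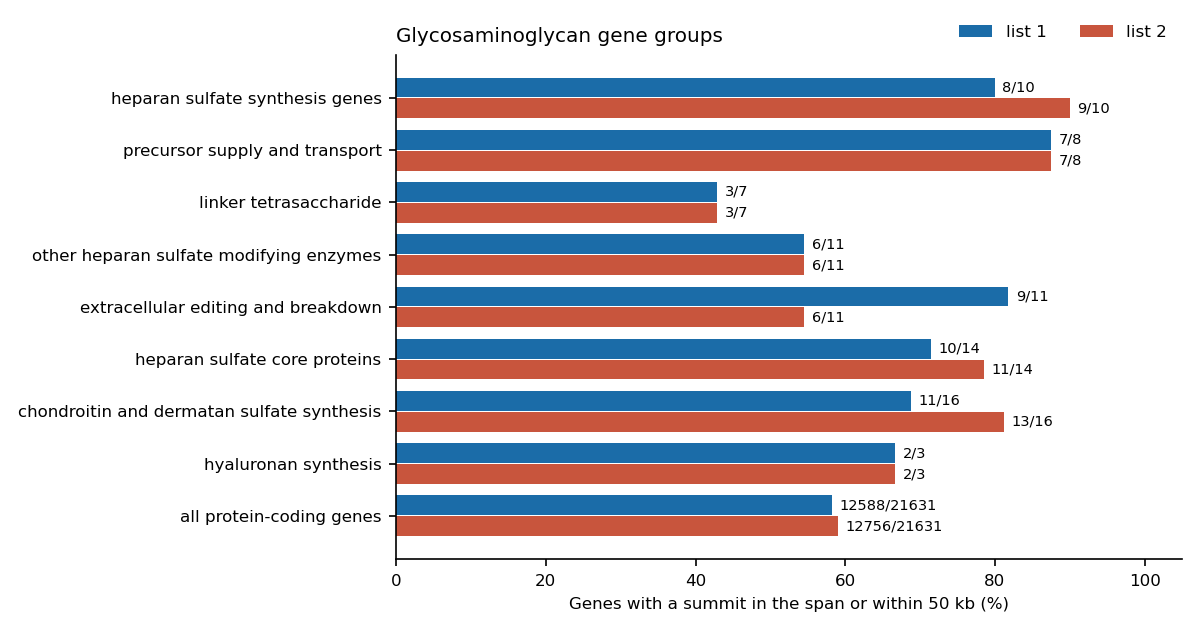
Percentage of genes with a summit in the span or within 50 kb (horizontal axis) for each gene group (vertical axis), with list 1 above list 2 and the number of genes beside each bar. The 10 heparan sulfate synthesis genes stand at 80.0% and 90.0%, the linker genes at 42.9% in both lists, and all protein-coding genes at 58.2% and 59.0%.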

How the data were processed

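ChIP and input DNA of OE-TEAD1 and OE-NC cardiac fibroblasts were sequenced, 4 libraries in 4 groups. Trimmomatic 0.33, Bowtie 1.1.2 and MACS2 were used, per the submitters' processing notes. The deposited values are the fold over input (a ratio), −log10 p, −log10 q and a score, equal to 10 times −log10 q cut to a whole number in all but 2 peaks of list 2. The authors called both lists against input. For pooling of libraries, the caller's settings and removal of duplicates, the sources used here give no statement.

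The notes name mm39. Coordinates were read as GRCm38, counted from 1, as the rule for placing peaks states. Of list 1 and list 2 summits 1129 and 1072 lay within 1 kb of an end of a GRCm38.p6 RefSeq protein-coding gene. After 100 shifts of 20 to 118 kb the counts were at most 944 and 972. Gene ends of mm39 were not compared, so these counts do not decide between the 2 builds. The lists hold no library sizes. Fragments at a summit and the background were solved from fold and p. The fragment numbers were whole to within 0.02 for 99.99% of the peaks of both lists. The functions were tested on simulated data. Python 3.11.15, pandas 2.3.3 and scipy 1.17.1 were used.

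Members and gene lists were chosen with earlier results of these data known. Named were all members, their strongest peaks in the window and in the span with the gene holding or nearest to them, peaks in 1 list only with −log10 q of at least 10, and the 2 strongest genes of each group in each list. Other peaks and the genes without a summit were named after their values were seen. No test was run, since each group had 1 library and the rule used these positions. Exons, introns and sequence under the peaks were not analysed here. Alternatives were the window, the peak threshold, the placing of peaks, neighbours' summits and the overlap counted as shared.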

Additional observations from a re-analysis of the deposited data

How the results depend on the processing

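The number of members with a summit stayed between 6 and 8 in list 1 and between 7 and 9 in list 2 under all 7 alternatives. The counts of summits depend on the peak threshold. With peaks of at least 10-fold, 15 and 18 summits were left in the windows and 10 and 9 in the spans of lists 1 and 2. With the 5000 strongest peaks of each list, 16 and 17 were left in the windows and 11 and 9 in the spans. With −log10 q of at least 5, 21 were left in the spans in list 1. The shared percentage was 100.0 in both lists for peaks of at least 10-fold, 87.8 in list 1 for −log10 q of at least 5, and 65.4 in list 2 when summits had to lie within 100 bp. Fewer peaks or a stricter match enter these settings by construction. The other 37 of 50 values stayed within 1.5 times the count, or within the interval of the percentage, given in the report. The median member peak rested on 20 fragments in list 1 and 27.5 in list 2, which limits the precision of single folds. No paired analysis was possible because no group has a second library and neither list is tied to a condition.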
